A study of Mus musculus with 12 samples.

Results

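Cytochrome P450 genes were examined in scraped dorsal epidermis of mice with and without Pparg in keratinocytes. The members are the rows of the filtered count table whose symbol has the form of a P450 gene (Cyp, a family number, a subfamily letter and a gene number), other than Cyp26b1 and Cyp4f39. The pattern matched 32 of the 14533 listed genes, and 30 members remained. They fall into 2 Cyp1 genes, 11 Cyp2 genes, 2 Cyp3 genes, 7 Cyp4 genes, 7 genes of sterol, steroid and vitamin D metabolism, and the orphan Cyp20a1. The study sequenced epidermal RNA from non-lesional skin of 12 untreated C57BL/6 mice, 6 wildtype (WT) and 6 Pparg-/-epi. Each animal gave a single library. The ages recorded for these mice were 8 to 13 weeks, while the study's methods state a younger range for its experimental mice. Both sexes were in each group. Males were WT mice 1, 3 and 5 and Pparg-/-epi mice 10 and 12, and the others were females. All 12 mice carried Pparg (flox/flox), and the Pparg-/-epi mice also carried Cre under the Cytokeratin14 promoter, which acts in keratinocytes of the epidermis and its appendages but not in the fibroblasts, vessels or immune cells of the same tissue. The skin was frozen and scraped down to the superficial dermis, so each library holds RNA of several cell types, and fewer cells of a type and less RNA per cell cannot be told apart in such bulk samples.

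Cytochromes P450 are haem enzymes that insert an oxygen atom into lipids, steroids and foreign compounds, using electrons that reach them through P450 reductase in the endoplasmic reticulum or through adrenodoxin in mitochondria. Members of the Cyp1 to Cyp3 families are best known for clearing drugs and pollutants, although several Cyp2 enzymes turn arachidonic acid into epoxides, and Cyp4 enzymes hydroxylate the far end of fatty acids and leukotrienes. The higher-numbered families mostly act on cholesterol, bile acid precursors, steroid hormones and vitamin D. In skin, P450 enzymes serve the lipid barrier, sebum and the local handling of retinoids, vitamin D and steroids.

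The enzymes share a short stretch that carries the cysteine binding the haem iron. It was searched in the annotated coding sequence of every member as F..G...C.G in one-letter amino acid code, with a dot for any residue, and was found in 28 of 30. It was not found in Cyp2s1 and Cyp20a1. The 30 coding bases of this stretch are printed for the members on which the results below turn, because genes with nearly the same bases there differed in whether they were altered. Sequences are from GENCODE M21 transcripts on GRCm38, and the capitals mark the cysteine codon. In the Cyp2 and Cyp4 genes shown an intron splits the stretch, so the genomic interval is longer than 30 bases. The first set holds the Cyp4f genes and Cyp4v3.
Cyp4f17 (chr17:32528342-32528729, plus strand): ttttctgctgggcctaggaacTGCatagga
Cyp4f16 (chr17:32550798-32551068, plus strand): ttttctgccgggcccaggaacTGCatagga
Cyp4f37 (chr17:32634724-32634988, plus strand): ttttctgccgggcccaggaacTGCatagga
Cyp4f13 (chr17:32924942-32925340, minus strand): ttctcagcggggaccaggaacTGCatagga
Cyp4f18 (chr8:71988725-71989076, minus strand): ttctcggctgggcccaggaacTGCatagga
Cyp4v3 (chr8:45307107-45308407, minus strand): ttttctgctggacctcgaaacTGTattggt
Cyp4f16 and Cyp4f37 had no differing base in this stretch, and both differed from Cyp4f17 at 2 of 30 bases. Cyp4v3 differed from the Cyp4f genes at 6 to 11 bases. A second set holds the Cyp2b, Cyp2g and Cyp2j genes.
Cyp2b10 (chr7:25917420-25926087, plus strand): ttctcaacaggaaagcgcattTGTcttggt
Cyp2b19 (chr7:26767236-26771252, plus strand): ttctccacaggaaagcgcattTGTcttgga
Cyp2g1 (chr7:26819474-26820667, plus strand): ttttcctctggaaagcgcatcTGCgttggg
Cyp2j6 (chr4:96518186-96523712, minus strand): ttctcaatgggaaagcgagctTGCctggga
Cyp2j9 (chr4:96568883-96571944, minus strand): ttctcaatgggaaaacgtgctTGTcttgga
Cyp2b10 and Cyp2b19 differed at 2 bases and Cyp2j6 and Cyp2j9 at 4 bases. The Cyp3a pair is shown because it held one gene that was not altered and one that was nearly lost.
Cyp3a13 (chr5:137895267-137895296, minus strand): tttgggagtggaccaaggaacTGCattggc
Cyp3a57 (chr5:145387007-145387036, plus strand): tttgggaatggacccaggaacTGCataggc
Cyp3a13 and Cyp3a57 differed at 3 bases.

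Shared sequence matters for counting, because reads that fitted several places in the genome were excluded by the authors. As the share of a gene's 75-base stretches that also occur in a transcript of another gene, overlap was 11.4% for Cyp4f37, all of it shared with Cyp4f16, and 10.1% for Cyp4f16. It was 6.40% for Cyp4v3, all of it shared with Gm45753, and 5.59% for Cyp4b1. In each of the other 26 members it was at most 3.24%, and 15 of these shared none. The comparison was between transcripts, so it does not tell whether a stretch occurs at several places in the genome. Cyp4v3 exons overlap the same-strand gene model Gm45753 over 10.7% of their bases, so those bases are a single place in the genome. Gm45753 is not among the listed genes. Cyp4f18 exons overlap Zfp961 on the opposite strand over 10.6% of their bases, and Cyp2f2 exons overlap Gm15883 on the opposite strand over 15.1%. The setting for strand in the counting is not given in the sources used here.

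Library totals ran from 10120840 to 16947632 counts in WT mice and from 11272135 to 18851255 in Pparg-/-epi mice, so that 1 count was worth 0.0520 to 0.107 CPM (counts scaled to equal library size by TMM). RNA integrity (exact permutation test, two-sided, p = 0.310), total count (p = 0.965) and age (p = 1) did not separate the groups, where the smallest p possible was 0.00216. The whole-gene Pparg count does not check the labels, since the floxed exons are a small piece of the gene and a deleted transcript is still made: it was 0.533 to 14.3 CPM in WT and 1.33 to 6.49 CPM in Pparg-/-epi mice. Keratinocyte markers were high in every library (summed CPM 13022 to 37231 in WT and, in Pparg-/-epi, 24683 to 45311), as the label of the tissue states, and fibroblast markers reached 1014 to 34533 CPM in WT and 5324 to 11169 CPM in Pparg-/-epi mice. WT mouse 2 stood apart in several members, and WT mouse 5 in skeletal muscle genes (8619.5 CPM against at most 324 CPM in every other mouse), and results that move without them are given below.

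Set side by side per kilobase of gene (RPKM), Cyp2b19 led the 30 members, among which Cyp26b1 and Cyp4f39 were not ranked. Cyp2b19, an arachidonic acid epoxygenase of differentiating keratinocytes, reached 145 ± 32.2 RPKM in WT and 112 ± 34.8 RPKM in Pparg-/-epi mice (SD, n = 6 per group). It made up 33.1% ± 7.84 of the summed RPKM of the members in WT and 31.4% ± 4.93 in Pparg-/-epi mice. Averaged over all mice, the next were Cyp2j6 (38.3 RPKM), Cyp2b10 (29.6 RPKM), Cyp27a1 (24.3 RPKM), Cyp2f2 (16.9 RPKM) and Cyp2g1 (16.3 RPKM). The place of Cyp2g1 rests on WT mouse 2, since its WT mean was 32.2 RPKM with this mouse and 6.64 RPKM without it. Cyp3a13 (14.8 RPKM), Cyp4v3 (14.1 RPKM), Cyp4f13 (12.9 RPKM) and Cyp4b1 (12.2 RPKM) complete the 10 most abundant. At the other end, Cyp46a1 (0.656 RPKM), Cyp27b1 (0.540 RPKM) and Cyp4f18 (0.367 RPKM) were barely present. The summed level of the members was 447 ± 76.4 RPKM in WT and 349 ± 57.3 RPKM in Pparg-/-epi mice, with overlapping ranges (364 to 585 and 279.8 to 431 RPKM).

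**Figure D1:**
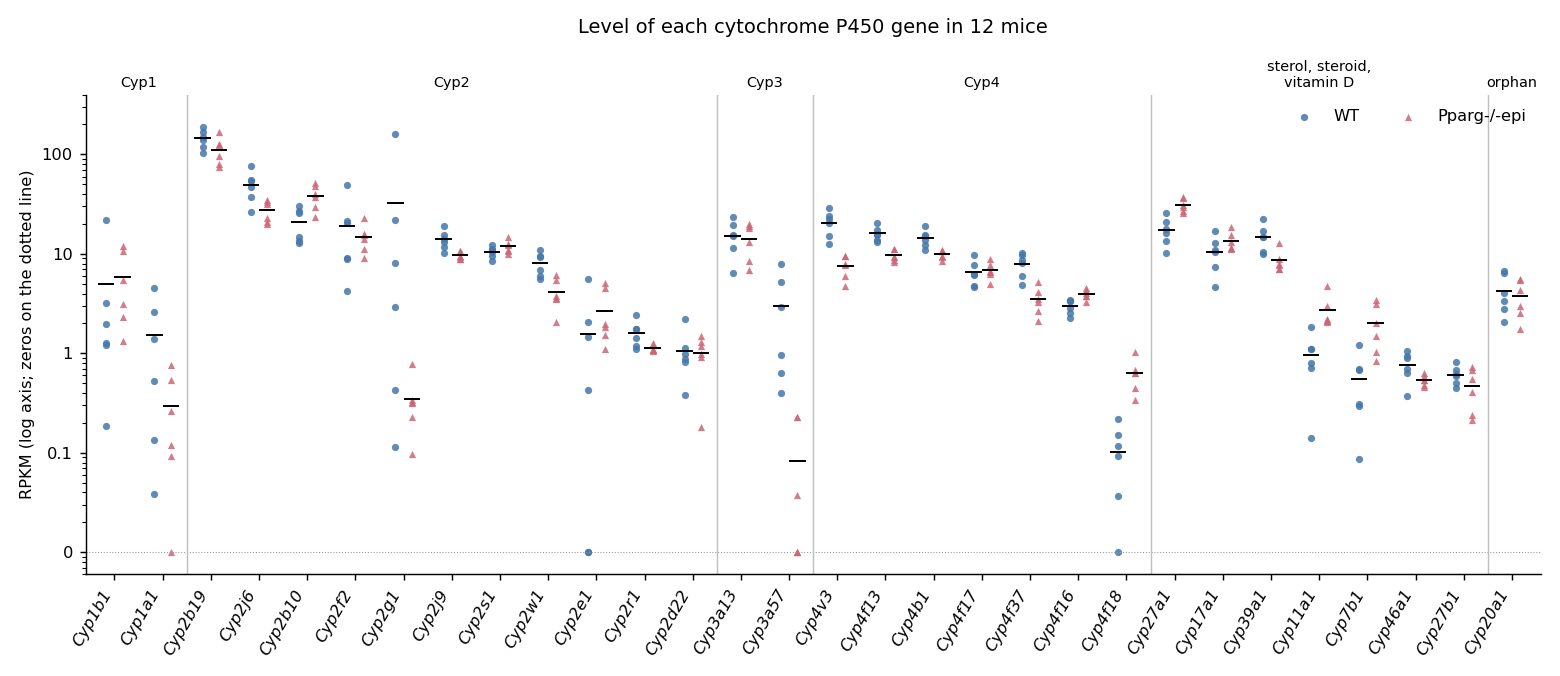
Level of each of the 30 P450 genes in RPKM (log axis, zeros drawn on the dotted line) in 6 WT mice (circles) and 6 Pparg-/-epi mice (triangles), with group means as short bars, ordered by gene group. Cyp2b19 is the highest in both groups, and the WT points of Cyp2g1 run from 0.115 to 160 RPKM.

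Loss of epidermal Pparg went with changes in both directions in the P450 genes. The threshold for calling a gene altered was a log2 difference of 0.6 or more in either direction together with an adjusted p below 0.05 (edgeR's quasi-likelihood test, Benjamini-Hochberg adjustment over 14533 genes). Of the 30 members, 13 (43.3%) were altered, beside 10.3% of all genes. Cyp11a1, Cyp27a1, Cyp2b10, Cyp4f18 and Cyp7b1 were higher in Pparg-/-epi mice (5 members, 16.7%, beside 5.19% of all genes). Cyp2g1, Cyp2j6, Cyp2w1, Cyp39a1, Cyp3a57, Cyp4f13, Cyp4f37 and Cyp4v3 were lower (8 members, 26.7%, beside 5.08%). The median log2 fold change was -0.35 over the members and -0.01 over all genes. In 6 members the CPM values of the groups did not overlap, beside 7.90% of all genes. For 2 of these, Cyp3a57 and Cyp4f18, the filter of the table required it.

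The table keeps genes that exceed 0.5 CPM in 6 or more of the 12 libraries, and a gene can reach that through one group alone, in which case the groups had to differ. This holds for Cyp3a57 (over 0.5 CPM in 6 WT and 0 Pparg-/-epi mice) and Cyp4f18 (0 WT and 6 Pparg-/-epi mice), and in the whole table for 27 genes, all of them altered. Of the other 28 members 11 were altered (39.3%), beside 10.1% of the other 14506 genes.

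**Figure D2:**
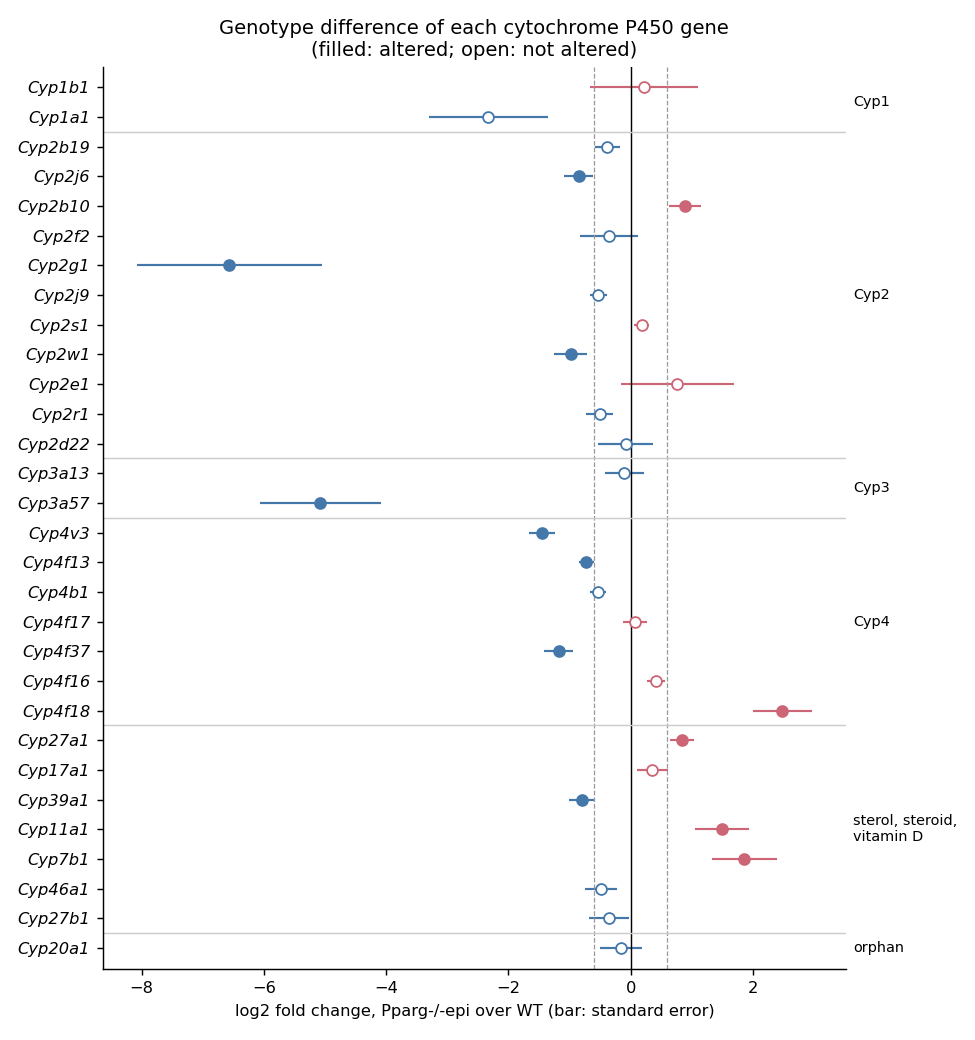
Log2 fold change of Pparg-/-epi over WT mice for each of the 30 P450 genes, with its standard error as a bar. Filled points are altered, open points are not, and dashed lines mark 0.6 in either direction; Cyp2g1 (-6.57) and Cyp3a57 (-5.08) lie far to the left and Cyp4f18 (2.48) farthest to the right.

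Among the Cyp4 genes, which hydroxylate the end of fatty acid chains, 4 of 7 were altered, beside 10.3% of all genes. Of these 1 was higher and 3 were lower, and the median log2 fold change of the 7 was -0.53. The higher one, Cyp4f18, had to differ because of the filter described above. Cyp4v3 is the mouse counterpart of human CYP4V2, a fatty acid hydroxylase whose loss causes a retinal lipid storage disease. Its lowest, median and highest levels were 37.0, 63.4 and 84.1 CPM in WT and 14.0, 22.8 and 27.9 CPM in Pparg-/-epi mice. The groups did not overlap, and Cyp4v3 was 2.73-fold lower in Pparg-/-epi mice (log2 fold change -1.45 ± 0.22 SE, adjusted p = 0.00117). The lowest WT values came from mice 1 and 2 (44.4 and 37.0 CPM).

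Cyp4f13 belongs to the Cyp4f subfamily, whose enzymes act on leukotrienes and long-chain fatty acids. It ran from 22.4 over a median of 26.9 to 35.4 CPM in WT and from 14.2 over 16.1 to 19.3 CPM in Pparg-/-epi mice, again without overlap (log2 fold change -0.72 ± 0.13 SE, adjusted p = 0.00292). For Cyp4f37, of the same subfamily, the lowest, median and highest levels were 12.8, 22.1 and 27.2 CPM in WT and 5.66, 9.05 and 13.8 CPM in Pparg-/-epi mice. One pair of mice overlapped, and Cyp4f37 was 2.26-fold lower (log2 fold change -1.17 ± 0.24 SE, adjusted p = 0.00563). The part of the stretches it shares with Cyp4f16 in its counts was not tested.

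Cyp4f18, known as a leukotriene B4 hydroxylase of mouse leukocytes, was the rarest member. It had 0 to 7 counts per WT library (0 to 0.371 CPM, median 0.180) and 7 to 29 counts per Pparg-/-epi library (0.582 to 1.76 CPM, median 1.09). Every Pparg-/-epi value lay above every WT value, as the filter described above required, and the fitted log2 fold change was 2.48 ± 0.49 SE (adjusted p = 0.00500), a value that depends on the prior count at such depth. Of the 5 Langerhans cell and macrophage markers none was altered. Their summed level was 925 to 2339 CPM in WT and 1168 to 1372 CPM in Pparg-/-epi mice, with Cd74 the most abundant. That list holds no neutrophil gene. In the study's own results leukocyte receptor genes went both ways (Cxcr2, Ccr1 and Csf3r higher, Ccr4 lower). The part of leukocyte content in the Cyp4f18 counts was not tested. Zfp961, whose exons overlap Cyp4f18 on the other strand, ran from 16.2 to 21.9 CPM in WT and from 12.1 to 18.5 CPM in Pparg-/-epi mice (log2 fold change -0.25 ± 0.12 SE, adjusted p = 0.191), and its part in the Cyp4f18 counts was not tested.

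The other 3 Cyp4 genes were not altered. Cyp4b1, which acts on fatty acids and some foreign compounds, had its lowest, median and highest levels at 20.6, 27.0 and 35.8 CPM in WT and at 16.1, 18.9 and 20.7 CPM in Pparg-/-epi mice. Its adjusted p passed but its size did not (log2 fold change -0.53 ± 0.13 SE, adjusted p = 0.0175), and just one Pparg-/-epi mouse overlapped the WT range. For Cyp4f16 the values were 4.97, 6.71 and 7.51 CPM in WT and 7.15, 8.54 and 9.86 CPM in Pparg-/-epi mice, and the log2 fold change was 0.42 ± 0.15 SE (adjusted p = 0.0776). Cyp4f17 stood at 6.54 ± 1.89 RPKM in WT and 6.89 ± 1.33 RPKM in Pparg-/-epi mice (SD, n = 6).

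Of the Cyp3 genes, enzymes best known for drug and steroid oxidation in liver, Cyp3a57 was nearly lost while Cyp3a13 was not altered. Cyp3a57 had 6 to 236 counts per WT library and 0 to 7 counts per Pparg-/-epi library. On the CPM scale its lowest, median and highest levels were 0.639, 3.10 and 12.5 in WT and 0, 0.0303 and 0.364 in Pparg-/-epi mice. The groups did not overlap, as the filter required of this gene, and the fitted log2 fold change was -5.08 ± 0.99 SE (adjusted p = 0.00487), which depends on the prior count because Pparg-/-epi mice 9, 10 and 12 had 0 counts. Cyp3a13 stood at 15.3 ± 6.06 RPKM in WT and 14.3 ± 5.62 RPKM in Pparg-/-epi mice (SD, n = 6).

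Sebocyte markers moved with Cyp3a57. Of the 10 genes on that list 8 were in the table, and 6 were altered, beside 10.3% of all genes. Fa2h, Scd3, Awat1, Awat2 and Far2, which serve the synthesis of sebum lipids, were lower. Krt79, a keratin of the upper hair follicle and sebaceous duct, was higher. Mc5r and Dgat2l6 were not listed, and Fa2h and Scd3 were at 0 counts in Pparg-/-epi mouse 10. The summed level of all 8 was 66.2 to 2317 CPM in WT and 1854 to 3523 CPM in Pparg-/-epi mice, and Krt79 made up most of it in Pparg-/-epi mice. Without Krt79 the sum was 20.5 to 982 CPM (median 204) in WT and 4.49 to 16.98 CPM (median 9.25) in Pparg-/-epi mice. Across the WT mice Cyp3a57 and this sum without Krt79 had the same order, mice 2, 1, 5, 4, 6 and 3 from high to low. Among the WT mice this order was not particular to sebocytes. The summed endothelial markers, of which none of 4 was altered, ran in nearly the same order (mice 2, 1, 5, 4, 3 and 6). Between the groups, however, the endothelial sum did not fall as Cyp3a57 did. It was 3.90 to 96.9 CPM (median 16.5) in WT and 18.9 to 146 CPM (median 76.1) in Pparg-/-epi mice. In the study's histology, non-lesional Pparg-/-epi skin had no sebaceous glands that could be seen. Its Oil Red O staining found no lipid-laden sebocytes there. The part of sebocyte RNA in the Cyp3a57 result was not tested.

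Of the 11 Cyp2 genes 4 were altered (beside 10.3% of all genes), 1 higher and 3 lower, with a median log2 fold change of -0.38. Cyp2g1, a P450 best known from the olfactory mucosa, differed most. Its counts ran from 2 to 5582 in WT libraries and from 3 to 16 in Pparg-/-epi libraries. In WT mice 1 to 6 its level was 5.37, 296, 0.213, 40.3, 0.790 and 14.9 CPM, and in Pparg-/-epi mice it was 0.182 to 1.45 CPM with a median of 0.594. Thus 4 WT mice lay above the Pparg-/-epi range while WT mice 3 and 5 lay within it. The WT females (mice 2, 4 and 6) all lay above the WT males (mice 1, 3 and 5). With sex as a term, males minus females came to -4.77 ± 1.36 SE on the log2 scale (adjusted p = 0.279), and the genotype by sex interaction was 5.29 ± 2.40 SE (adjusted p = 0.895), so neither passed. Cyp2g1 was lower at a log2 fold change of -6.57 ± 1.52 SE (adjusted p = 0.0119), and without WT mouse 2 it was -4.29 (adjusted p = 0.0109). It came to -6.44 (adjusted p = 0.00616) with sex as a term and -7.43 (adjusted p = 0.0176) in females alone. Males alone were not fitted: the WT males are given above, and the Pparg-/-epi males (mice 10 and 12) stood at 0.582 and 0.429 CPM. The order of the WT mice was not that of the sebocyte markers, since WT mouse 5 was high in those (336 CPM without Krt79) and low in Cyp2g1, and the part of cell composition in this result was not tested.

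Cyp2j6 and Cyp2j9 encode epoxygenases of arachidonic and linoleic acid and lie next to each other on chromosome 4. Cyp2j6 had its lowest, median and highest levels at 94.3, 182 and 273 CPM in WT and at 71.5, 97.9 and 127 CPM in Pparg-/-epi mice. The groups overlapped, and it was 1.80-fold lower in Pparg-/-epi mice (log2 fold change -0.85 ± 0.23 SE, adjusted p = 0.0284). Cyp2j9 ran from 19.7 over a median of 26.7 to 37.1 CPM in WT and from 17.2 over 18.4 to 20.8 CPM in Pparg-/-epi mice, and its change missed the size threshold (log2 fold change -0.53 ± 0.14 SE, adjusted p = 0.0230).

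Cyp2w1, a P450 known mainly from tumours and the fetal gut, was among the lower members. The WT values ran from 8.38 over a median of 12.2 to 16.7 CPM, and the Pparg-/-epi values from 3.09 over 5.58 to 9.23 CPM, so that the groups overlapped at one end. It was 1.97-fold lower (log2 fold change -0.98 ± 0.26 SE, adjusted p = 0.0251). Cyp2r1, a vitamin D hydroxylase, had its lowest, median and highest levels at 1.82, 2.61 and 3.97 CPM in WT and at 1.72, 1.79 and 2.06 CPM in Pparg-/-epi mice. It did not pass (log2 fold change -0.51 ± 0.22 SE, adjusted p = 0.149).

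Cyp2b10, the classical target of the xenobiotic receptor CAR in liver, was the one Cyp2 gene that rose. Its lowest, median and highest levels were 24.2, 38.1 and 57.4 CPM in WT and 43.96, 73.1 and 97.6 CPM in Pparg-/-epi mice. The groups overlapped, and it was 1.85-fold higher (log2 fold change 0.89 ± 0.26 SE, adjusted p = 0.0362). CAR itself (Nr1i3) is not among the listed genes.

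The remaining Cyp2 genes were not altered. Cyp2b19, the most abundant member, ran from 283 to 523 CPM in WT and from 205 to 458 CPM in Pparg-/-epi mice (log2 fold change -0.38 ± 0.21 SE, adjusted p = 0.249). Cyp2s1, an epithelial P450 linked to retinoids, stood at 10.5 ± 1.32 RPKM in WT and 11.9 ± 1.73 RPKM in Pparg-/-epi mice (SD, n = 6) and had the narrowest WT spread of the Cyp2 genes relative to its mean. Cyp2f2, which oxidises naphthalene in lung, stood at 18.9 ± 16.4 and 14.8 ± 4.81 RPKM, and WT mouse 2 held its highest value (49.3 RPKM). Without this mouse the WT mean was 12.8 RPKM and the log2 fold change turned from -0.35 to 0.20 (adjusted p = 0.737). Cyp2d22 stood at 1.07 ± 0.611 and 1.01 ± 0.459 RPKM, and its log2 fold change likewise turned without WT mouse 2, from -0.08 to 0.25. Cyp2e1, the ethanol-oxidising P450 of liver, was at 0 counts in WT mice 3 and 6 and reached 122 counts in WT mouse 5, against 32 to 130 counts in Pparg-/-epi mice (log2 fold change 0.76 ± 0.92 SE, adjusted p = 0.640, and 1.73 at an adjusted p of 0.246 without WT mouse 5). The adipocyte markers, of which none of 4 was altered, summed to 1.81 and 2.45 CPM in those WT mice with no Cyp2e1 and to 41.0 CPM in WT mouse 5, where Cyp2e1 was 9.64 CPM. The highest sum, 111 CPM, was in WT mouse 2, where Cyp2e1 was 3.56 CPM, and the sum was 6.40 to 40.1 CPM in Pparg-/-epi mice. Their part in the Cyp2e1 values was not tested.

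Neither Cyp1 gene was altered. Both are induced through the aryl hydrocarbon receptor. Cyp1a1 had its lowest, median and highest levels at 0.107, 2.68 and 12.6 CPM in WT and at 0, 0.530 and 2.12 CPM in Pparg-/-epi mice. It missed the threshold at a log2 fold change of -2.33 ± 0.97 SE (adjusted p = 0.130), and the value was -1.62 (adjusted p = 0.224) without WT mouse 2. Its WT order from high to low was also mice 2, 1, 5, 4, 6 and 3. Cyp1b1 was 113 CPM in WT mouse 2 and 0.959 to 16.4 CPM in the other WT mice, against 6.87 to 61.1 CPM in Pparg-/-epi mice (log2 fold change 0.22 ± 0.89 SE, adjusted p = 0.900). Its value rests on WT mouse 2: without this mouse the WT mean was 8.01 CPM in place of 25.4 CPM, beside 29.8 CPM in Pparg-/-epi mice, and the log2 fold change was 1.88 (3.68-fold, adjusted p = 0.0569). It was below 0 in 3 of the 12 fits that left out 1 mouse, down to -0.14.

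Of the 7 sterol, steroid and vitamin D genes 4 were altered (beside 10.3% of all genes), 3 higher and 1 lower. The median log2 fold change was 0.35, with values above 0 in 4 genes and below 0 in 3. Among the higher ones Cyp11a1 and Cyp7b1 were called in 3 and 6 of the 12 fits that left out 1 mouse. Cyp11a1 is the mitochondrial enzyme that cuts the cholesterol side chain to make pregnenolone. It was 0.252 to 3.29 CPM in WT (median 1.69) and 3.66 to 8.50 CPM in Pparg-/-epi mice (median 3.91). The groups did not overlap, and it was 2.82-fold higher (log2 fold change 1.50 ± 0.44 SE, adjusted p = 0.0366).

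Cyp27a1, a mitochondrial hydroxylase of the cholesterol side chain and of vitamin D, was the most abundant of this group. Its lowest, median and highest levels were 19.5, 32.1 and 48.4 CPM in WT and 48.7, 57.3 and 70.3 CPM in Pparg-/-epi mice. The groups nearly met without overlap, with WT mouse 2 at the top of its group, and Cyp27a1 was 1.79-fold higher (log2 fold change 0.84 ± 0.19 SE, adjusted p = 0.0108).

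Cyp7b1 and Cyp39a1, both hydroxylases of oxysterols on the way to bile acids, moved in opposite directions. Cyp7b1 ran from 0.189 over a median of 1.08 to 2.62 CPM in WT and from 1.80 over 3.81 to 7.51 CPM in Pparg-/-epi mice. It was 3.63-fold higher with overlapping groups (log2 fold change 1.86 ± 0.54 SE, adjusted p = 0.0339). Cyp39a1 had its lowest, median and highest levels at 30.9, 46.2 and 70.4 CPM in WT and at 21.7, 24.3 and 40.4 CPM in Pparg-/-epi mice. It was 1.74-fold lower (log2 fold change -0.80 ± 0.21 SE, adjusted p = 0.0235), and the overlap came from Pparg-/-epi mouse 12 (40.4 CPM) and from WT mice 1 and 2 (30.9 and 32.7 CPM).

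The other 3 genes of this group and the orphan were not altered. Cyp17a1, which leads from pregnenolone towards androgens, stood at 10.6 ± 4.27 RPKM in WT and 13.6 ± 2.98 RPKM in Pparg-/-epi mice (SD, n = 6). Cyp46a1, the cholesterol hydroxylase of neurons, was at 0.768 ± 0.249 and 0.543 ± 0.0665 RPKM, and Cyp27b1, which makes the active form of vitamin D, was at 0.609 ± 0.131 and 0.471 ± 0.220 RPKM. Cyp20a1, whose substrate is not known, was at 4.22 ± 1.90 and 3.79 ± 1.58 RPKM.

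**Figure D3:**
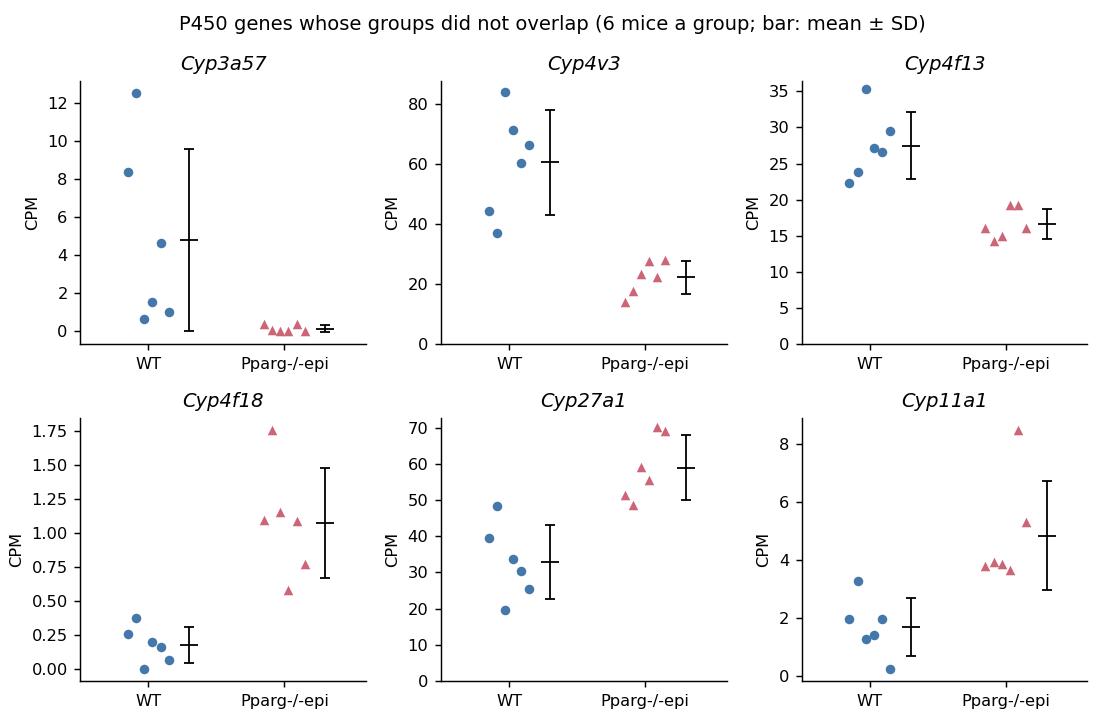
CPM in each of 6 WT (circles) and 6 Pparg-/-epi mice (triangles) for the 6 P450 genes whose groups did not overlap, with mean ± SD beside the points. Cyp3a57, Cyp4v3 and Cyp4f13 are lower and Cyp4f18, Cyp27a1 and Cyp11a1 higher in Pparg-/-epi mice, and the filter of the table required the separation of Cyp3a57 and Cyp4f18.

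Members within 1 Mb of the next formed 4 clusters, and in none of them was every gene altered. In the Cyp2 cluster of chromosome 7 (mm10), Cyp2b10 (25897658 to 25926624) was higher and Cyp2g1 (26808927 to 26821197) lower, while Cyp2s1, Cyp2b19 and Cyp2f2 were not altered. Cyp2b19 (26757142 to 26772630) is the nearest member to Cyp2g1 and had a log2 fold change of -0.38 beside -6.57. In the Cyp4f cluster of chromosome 17, Cyp4f37 (32621319 to 32636184) and Cyp4f13 (32924688 to 32947361) were lower, while Cyp4f17 and Cyp4f16 were not altered (log2 fold changes 0.07 and 0.42). Cyp4f18, the Cyp4f gene that rose, lies apart from these on chromosome 8 (71988482 to 72009626), as does Cyp4v3 (45305802 to 45333196) on the same chromosome. On chromosome 9, Cyp1a1 (57687928 to 57703824) and Cyp11a1 (58015017 to 58027023) lie 327 kb apart from start to start and had values of opposite sign, with Cyp11a1 alone altered. In the pair on chromosome 4, Cyp2j6 (96516138 to 96553651) was lower and Cyp2j9 (96568429 to 96591485) had a value of the same sign under the size threshold.

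**Figure D4:**
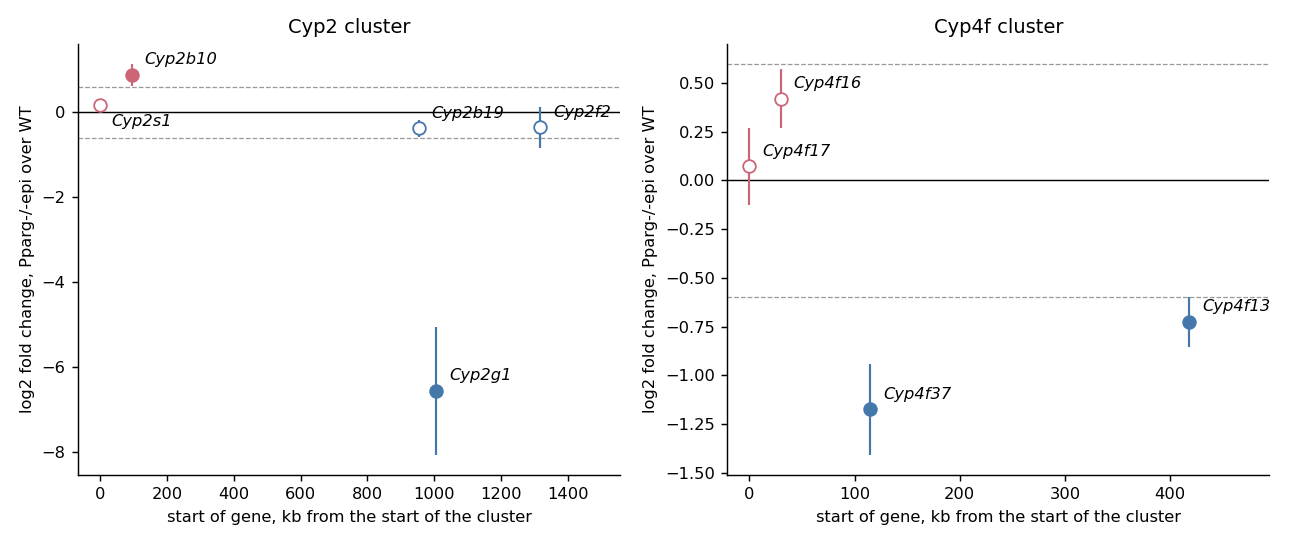
Log2 fold change (Pparg-/-epi over WT) with standard error against the start of each gene, in kb from the start of the cluster, for the Cyp2 cluster and the Cyp4f cluster. Filled points are altered, open points are not, and dashed lines mark 0.6 in either direction; the altered genes of the Cyp2 cluster lie on both sides of 0.

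Genes that serve or control the P450 enzymes were examined as lists, whose counts stand beside 10.3% of all genes altered. The lists are short, and none was tested against that share. None of 12 listed electron donors was altered, Por (P450 reductase), Cyb5a (cytochrome b5) and Fdx1 (adrenodoxin) among them, and their median log2 fold change was -0.15 (at an unadjusted p under 0.05, Cyb5r1 and Pgrmc1). The log2 fold change of Por was 0.11 ± 0.10 SE (adjusted p = 0.486). Of 13 genes of haem synthesis and breakdown 3 were altered: Cpox was higher (log2 fold change 0.65 ± 0.07 SE, adjusted p = 1.79e-04), and Alad (-0.62 ± 0.13 SE, adjusted p = 0.00650) and Blvrb (-0.72 ± 0.17 SE, adjusted p = 0.0147) were lower. Cpox and Alad are haem synthesis enzymes without overlap between the groups, and Blvrb is a biliverdin reductase. The size threshold was missed on the higher side by Alas1, the rate-limiting step (0.36 ± 0.11 SE, adjusted p = 0.0418), and on the lower side by Ppox (-0.53 ± 0.16 SE, adjusted p = 0.0402) and Fech (-0.30 ± 0.09 SE, adjusted p = 0.0465), which act late in haem synthesis.

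Among the transcription factors that act on P450 genes, 2 of 11 listed nuclear receptors were altered, beside 10.3% of all genes. Vdr, the vitamin D receptor, was higher (log2 fold change 1.01 ± 0.23 SE, adjusted p = 0.0120). Ppara, the receptor that drives Cyp4a genes in liver, was lower without overlap (-1.31 ± 0.14 SE, adjusted p = 1.67e-04). No Cyp4a gene is among the members. Ppard (0.59 ± 0.11 SE, adjusted p = 0.00370) and Nr3c1, the glucocorticoid receptor (-0.36 ± 0.09 SE, adjusted p = 0.0207), missed the size threshold. Of 11 genes of the aryl hydrocarbon receptor pathway Aldh3a1 (1.31 ± 0.28 SE, adjusted p = 0.00787) and Nqo1 (1.25 ± 0.37 SE, adjusted p = 0.0381) were higher, while Ahr (0.28 ± 0.11 SE, adjusted p = 0.117) and Ahrr (-0.23 ± 0.32 SE, adjusted p = 0.690) were not altered, and Arnt2 missed on size (-0.55 ± 0.16 SE, adjusted p = 0.0352). Tiparp (0.02 ± 0.21 SE, adjusted p = 0.968) and Ugt1a7c (0.91 ± 0.32 SE, adjusted p = 0.0755) of this list were not altered. Cyp1a1, the best known target of this receptor, was not altered either (-2.33, adjusted p = 0.130). The activity of the receptor was not tested.

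Of 4 epoxide hydrolases, which open the products of the epoxygenases, none was altered (Ephx1 -0.40 ± 0.10 SE, adjusted p = 0.0147, under the size threshold; Ephx4 1.30 ± 0.45 SE, adjusted p = 0.0718). Of 11 partner enzymes of steroid and vitamin D metabolism Hsd3b7, which acts on oxysterols after Cyp7b1, was lower without overlap (log2 fold change -1.14 ± 0.16 SE, adjusted p = 8.94e-04), and none was higher (Hsd17b2, an inactivator of sex steroids, had 1.69 ± 0.54 SE, adjusted p = 0.0520). Hsd17b12 missed on size (-0.47 ± 0.12 SE, adjusted p = 0.0216).

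The direction of all 13 altered members and of the 5 others with an unadjusted p under 0.05 (Cyp1a1, Cyp2j9, Cyp2r1, Cyp4b1 and Cyp4f16) was kept in every fit that left out 1 mouse. Cyp27a1, Cyp2g1, Cyp3a57, Cyp4f13, Cyp4f18, Cyp4f37 and Cyp4v3 were altered in all 12 such fits. The largest moves were in Cyp2g1 without WT mouse 2 (to -4.29 on the log2 scale) and in Cyp3a57 without Pparg-/-epi mouse 7 (to -5.85). Cyp39a1 was altered in 11 fits and missed without WT mouse 4 (-0.64, adjusted p = 0.0530). Cyp2w1 was altered in 8 and missed without WT mouse 4 or 6 or Pparg-/-epi mouse 7 or 9 (adjusted p = 0.0540 to 0.0599). Cyp2j6 was altered in 6 and missed without WT mouse 3, 4 or 6 or Pparg-/-epi mouse 7, 8 or 9 (0.0521 to 0.0620), and Cyp7b1 was altered in 6 and missed without WT mouse 3, 4 or 5 or Pparg-/-epi mouse 7, 8 or 9 (0.0536 to 0.0864). Cyp2b10 was altered in 5 and missed without WT mouse 3, 4 or 6 or Pparg-/-epi mouse 9, 10, 11 or 12 (0.0635 to 0.0796). Cyp11a1, although its groups did not overlap, was altered in 3 and missed without WT mouse 1, 3, 4 or 5 or Pparg-/-epi mouse 7, 8, 9, 11 or 12 (0.0532 to 0.0814). Cyp2j9 became altered without WT mouse 2 (-0.62, adjusted p = 0.00458).

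The names of the mice start with numbers whose meaning is not given in the sources used here. WT mice 3 to 6 share a number that no Pparg-/-epi mouse has, Pparg-/-epi mice 8 and 9 share another and mice 11 and 12 a further one, while WT mouse 2 and Pparg-/-epi mouse 10 have the same number. With WT mice 1 and 2 alone against the 6 Pparg-/-epi mice, 2 members were altered, Cyp2g1 (log2 fold change -7.89, adjusted p = 0.00586) and Cyp3a57 (-6.17, adjusted p = 0.00466), beside 2.68% of all genes. The directions were kept in all 18 members, but Cyp4v3 came to -0.86 (adjusted p = 0.107), Cyp39a1 to -0.24 (0.606), Cyp2j6 to -0.20 (0.707), Cyp27a1 to 0.44 (0.222) and Cyp11a1 to 0.88 (0.284). WT mice 1 and 2 were also the youngest of their group (8 and 9 weeks, the others 12 or 13). They had its highest RNA integrity (7.4 and 8.6) and its highest fibroblast sums (34533 and 10471 CPM). The parts of names, age, RNA integrity and scraped tissue in the differences cannot be told apart here and were not tested. With fewer WT mice the test also has less to work with.

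**Figure D5:**
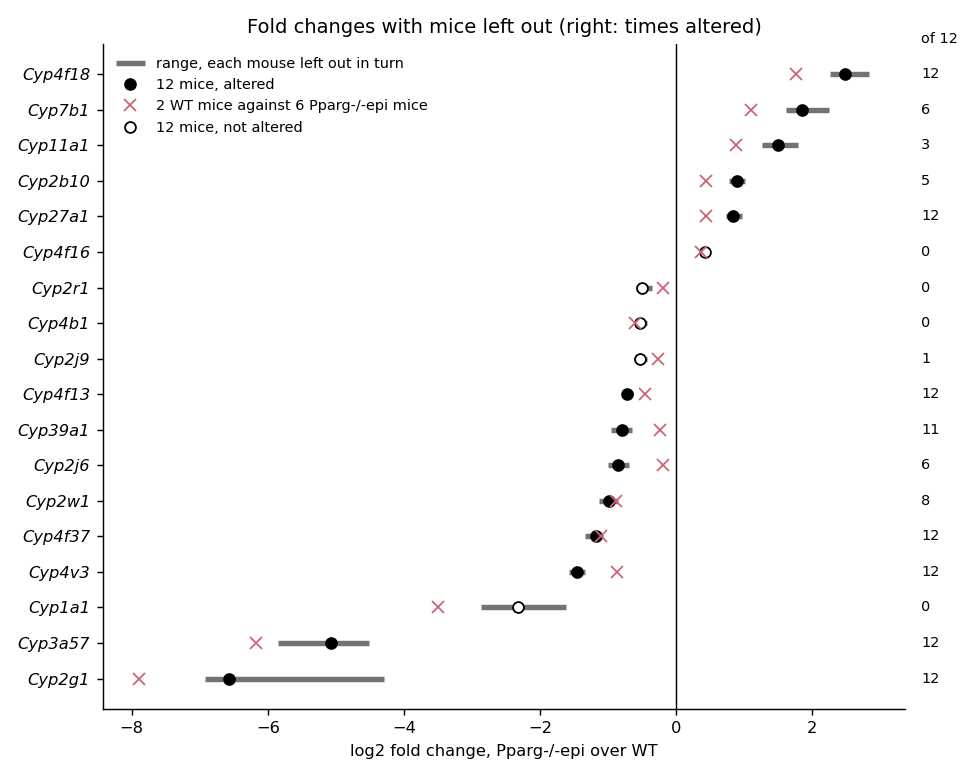
Log2 fold change (Pparg-/-epi over WT) of the 18 P450 genes that were altered or had an unadjusted p under 0.05, with all 12 mice (filled circle altered, open circle not altered), as the range over fits that each left out 1 mouse (grey bar), and with WT mice 1 and 2 against the 6 Pparg-/-epi mice (cross). Numbers at the right give in how many of 12 such fits the gene was altered, and every range stays on its side of 0.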

How the data were processed

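Dorsal epidermis of 6 WT and 6 Pparg-/-epi mice was sequenced with 1 library per mouse (mRNA kit, genome build mm10). Per the labels and the study's methods, the authors aligned reads with STAR (2.5.2b), left out reads of low mapping quality or with several mapping positions, and used featureCounts to count reads per gene (Subread 1.5.1). The authors deposited these raw counts without normalization; 2800 blank rows were dropped and 14533 genes tested. Members and gene lists were chosen with earlier results of these data known.

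Counts were scaled by TMM and compared with edgeR's quasi-likelihood test in R 4.3.3 (edgeR 4.0.16), and genotype was the sole factor; the likelihood ratio test named in the study's methods and DESeq2 (1.42.0) were alternatives, with other scalings, filters, covariates and left-out mice. The scripts were tested on simulated counts. SE is the log2 fold change over the root of F. Every member that was altered, had an unadjusted p under 0.05 or had non-overlapping groups is given with full statistics, and the 10 most abundant with their level. RPKM used the gene lengths of the table. Replicates are separate mice. No pair of libraries agreed within counting noise. Sequence came from GENCODE M21 and figures from matplotlib 3.10.9 (Python 3.11.15).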

Additional observations from a re-analysis of the deposited data

Results flagged for a closer look

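In 6 of 60 sets of 6 values (30 members in both groups), 1 mouse lay far from the other 5 of its group by Dixon's ratio. Chance gives about 1 in 20 for normally distributed values, which unlogged CPM need not be. All 6 lay on the high side, so the count cannot be read as an excess. WT mouse 2 held 2 of these values, Cyp2g1 (296 CPM, next 40.3 CPM) and Cyp1b1 (113 CPM, next 16.4 CPM). WT mouse 5 was high in Cyp2e1 (9.64 CPM, next 3.56 CPM). Pparg-/-epi mouse 11 was high in Cyp11a1 (8.50 CPM, next 5.32 CPM) and in Cyp2g1 (1.45 CPM, next 0.624 CPM). Pparg-/-epi mouse 12 was high in Cyp39a1 (40.4 CPM, next 27.7 CPM). No genotype effect differed between the sexes past the threshold: in edgeR's quasi-likelihood test of the interaction 0 genes passed (741 had an unadjusted p under 0.05), and the lowest adjusted p of a member was 0.895.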

How the results depend on the processing

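All 18 P450 genes that were altered or had an unadjusted p under 0.05 kept their direction in every fit run. None of the other 12 was altered in any fit, and in 6 of them (Cyp1b1, Cyp20a1, Cyp2d22, Cyp2f2, Cyp3a13 and Cyp4f17) the sign turned when 1 mouse was left out. The likelihood ratio test, DESeq2, RLE scaling, unscaled library totals and age as a term each called the same 13 members; without scaling the median log2 fold change of all genes was -0.01, as with it. With sex as a term 12 members passed, without Cyp7b1. With RNA integrity as a term Cyp2j6, Cyp39a1 and Cyp7b1 were lost and Cyp1a1 was gained, 11 in all. The filterByExpr filter removed Cyp3a57 and Cyp4f18 before testing, which left 11. In female mice alone 6 members passed, 1 higher and 5 lower, with 651 of all genes altered. Without the 4 WT mice whose names share a first number 2 passed, 0 higher and 2 lower, with 389 of all genes altered; fewer mice were tested in both fits. With 1 mouse left out, 7 to 14 members passed, 2 to 5 higher and 5 to 9 lower (the fewest without WT mouse 4, the most without WT mouse 2, where 2249 genes were altered in place of 1493). Without WT mice 2 and 5 together, an alternative chosen after seeing the data, 13 passed, with Cyp7b1 lost and Cyp2j9 gained. Among the lists, the likelihood ratio test altered 1 epoxide hydrolase and 2 partner enzymes. With 1 mouse left out the count was 1 to 4 for haem genes, 1 to 3 for the aryl hydrocarbon receptor pathway, 0 to 1 for epoxide hydrolases and 1 to 2 for partner enzymes. The cause of these moves was not tested. No paired analysis was possible because the groups share no replicate numbers in the labels, and the number that starts the names is shared across the groups by 1 pair alone (WT mouse 2 and Pparg-/-epi mouse 10), although the controls were siblings. Depth limits Cyp4f18 and Cyp3a57, whose lower group had at most 7 counts per library.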
